A study of Homo sapiens with 3 samples.

Results

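The S100 proteins and annexins described here are S100A4, S100A6, S100A8, S100A9, S100A10, S100A11, S100A13, S100A16, ANXA1 and ANXA2. They were followed in the B-cell precursor acute lymphoblastic leukemia (ALL) line SupB15 and in SupB15-MR cells. All probe sets that the annotation of the array assigns to 1 of these 10 genes alone were taken, 18 of 54675 on the array. SupB15 (1 array) is drug sensitive. SupB15-MR cells (2 arrays, labelled as biological replicates, the second from cells labelled SupB15-MR5) are multiple drug resistant and came from SupB15 cells that survived mitoxantrone in medium conditioned by bone marrow stromal cells and were then kept without drug. Both were grown in normal medium when RNA was taken. The paper's figures name 2 clones of SupB15-MR cells, so the spread between the SupB15-MR arrays may include differences between clones. No sample of stromal cells was used here. The values are log2 expression values from RMA, the array summary method used by the authors, and a difference of 1 is a 2-fold change. The 10 genes were chosen by their differences between SupB15-MR and SupB15 in these arrays, which are therefore a description without a test.

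S100 proteins are small calcium sensors of the EF-hand type that mostly work as dimers, and on binding calcium they expose a surface that grips a target protein. Annexins bind acidic membrane lipids when calcium rises and link membranes to each other and to the actin cortex. The families meet in named pairs: S100A10, which has lost calcium binding, holds the N-terminus of ANXA2, and S100A11 holds that of ANXA1. S100A8 and S100A9 form calprotectin, the main cytosolic protein of neutrophils and monocytes, and are not typical of B-cell precursors. All 8 S100 genes lie in 1 cluster on chromosome 1, ANXA1 lies on chromosome 9 and ANXA2 on chromosome 15.

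The starts of these genes are shown so that the promoters of the genes that were lower in SupB15-MR can be read beside those of genes that were not. The 60 bases before the annotated start are given 5′ to 3′ on the gene's strand, from RefSeq (GRCh38.p14), with the letters TATAA in capitals where they begin 20 to 45 bases before the start. For a gene with several starts, the first window that holds them is shown, and otherwise the first listed.
S100A4, chr1:153545807-153545866, minus strand: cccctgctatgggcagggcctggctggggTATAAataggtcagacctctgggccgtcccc
S100A6, chr1:153535992-153536051, minus strand: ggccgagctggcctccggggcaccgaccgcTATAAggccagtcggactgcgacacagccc
S100A13, chr1:153627506-153627565, minus strand: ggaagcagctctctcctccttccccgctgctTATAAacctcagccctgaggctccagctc
S100A16, chr1:153613138-153613197, minus strand: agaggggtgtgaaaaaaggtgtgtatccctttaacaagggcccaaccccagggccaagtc
ANXA2, chr15:60397987-60398046, minus strand: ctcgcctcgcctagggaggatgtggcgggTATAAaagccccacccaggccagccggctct
S100A8, chr1:153391074-153391133, minus strand: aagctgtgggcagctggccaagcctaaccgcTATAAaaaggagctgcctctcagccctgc
S100A9, chr1:153357794-153357853, plus strand: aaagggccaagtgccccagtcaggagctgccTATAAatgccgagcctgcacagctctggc
ANXA1, chr9:73151805-73151864, plus strand: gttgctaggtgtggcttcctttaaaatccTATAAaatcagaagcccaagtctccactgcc
TATAA stood at this distance in 1 window of 7 of the 10 genes, which have 15 windows between them, against 4.09% of all 35116 promoter windows, searched on the gene's strand only. The comparison is a description. It was present in S100A4, S100A6, S100A13 and ANXA2, which had probe sets lower in SupB15-MR, and equally in S100A8, S100A9 and ANXA1, which had none. S100A10, S100A11 and S100A16 had none of these letters in the window. The number of CG dinucleotides in the 250 bases before the start differed within both sets. Among the genes with a lower probe set it was 28 in ANXA2, 24 in S100A6, 15 in S100A11, 10 in S100A13, 7 in S100A4 and 1 in S100A16, in the windows chosen as above. Among the others it was 24 in S100A10, 4 in S100A9, 2 in S100A8 and 0 in ANXA1, and the median of all windows was 11.

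Across the array, both SupB15-MR samples exceeded SupB15 by 2-fold or more on 8433 probe sets and fell short of it by as much on 6914, so a difference of this size was frequent. The array medians were 5.08, 5.27 and 5.28. The control probe sets of 18S ribosomal RNA were 6.57 to 7.84 higher in SupB15-MR, and the 3′ over 5′ difference of the ACTB control was 0.80 in SupB15 against 2.59 and 2.43 in SupB15-MR. That of the GAPDH control was 0.10 in SupB15 against -0.09 and -0.11 in SupB15-MR. The part of these differences in the results below was not tested. Both SupB15-MR arrays held the same value to the last digit for 23368 probe sets (42.7%), and 7470 (13.7%) were identical in all 3 arrays. Whether the deposited values were processed further after RMA is not given in the sources used here, so an identical value cannot be taken to show that a level did not change. Of the genes that mark B-cell precursors, PAX5 had 10.6 in SupB15 against 9.78 and 9.90 in SupB15-MR and CD79A had 10.3 in every array. The other probe set of PAX5 had a difference of 1.80, and that of CD79A one of -1.02. VPREB1 and CD34 were far lower in SupB15-MR (-6.41 and -6.38) and IGLL1 was lower (-2.31). EBF1 had a difference of -1.50 that did not pass the test, and its probe sets ranged from -2.93 to 1.94. RAG2, RAG1 and MME were higher (3.32, 2.03 and 1.54, of which RAG1 did not pass the test). The samples are bulk RNA, in which fewer cells that express a gene and less RNA per cell cannot be told apart.

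Of the 18 probe sets, 8 were lower by 2-fold or more in each SupB15-MR sample, as were 12.6% of all probe sets. Only 1 was higher by as much, as were 15.4% of all. These shares follow from how the genes were chosen. The other 9 were neither. The 8 lower probe sets belong to 6 genes, S100A4, S100A6, S100A11, S100A13, S100A16 and ANXA2. S100A8, S100A9, S100A10 and ANXA1 had no probe set that was 2-fold apart in both arrays. Of the 18 probe sets, 14 passed the filter on low values (above 3.47, the 20th percentile of all values, in at least 1 array), and both probe sets of S100A8 and both of ANXA1 did not. The median difference over all 18 probe sets was -0.14, and over all probe sets of the array 0.

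**Figure D1:**
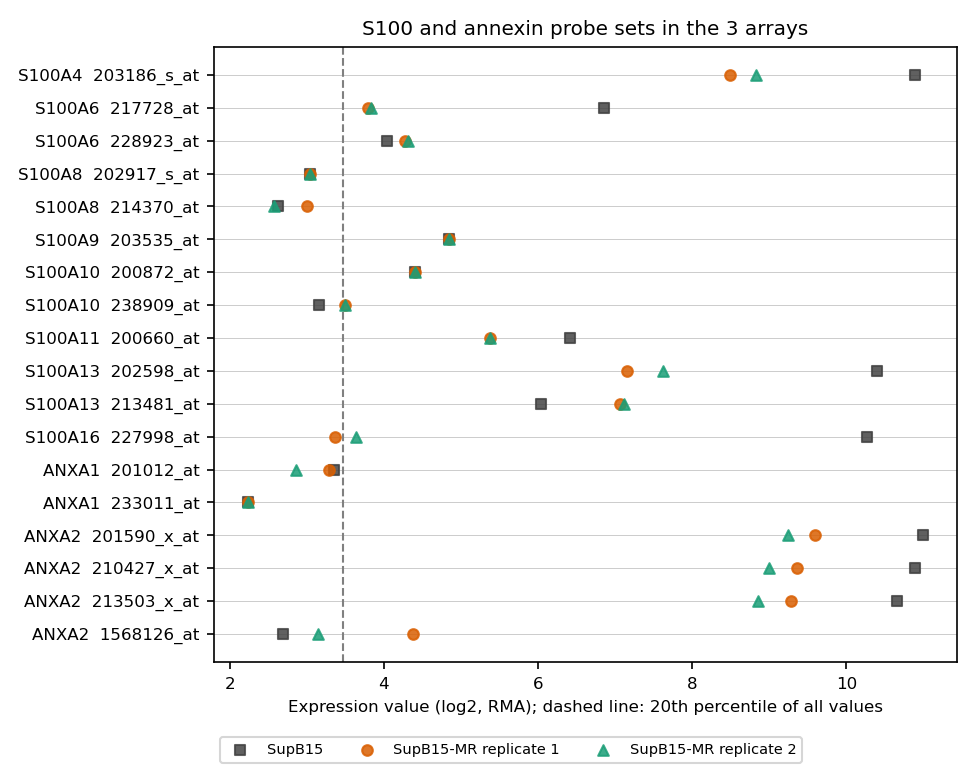
Log2 expression value (horizontal axis) of each of the 18 probe sets of the 10 genes in the SupB15 array (squares) and both SupB15-MR arrays (circles and triangles). Values are to be compared within a row, and the dashed line marks the 20th percentile of all values (3.47). S100A16 lies at 10.3 in SupB15 and beside the dashed line in both SupB15-MR arrays, whereas the 3 symbols of S100A9 coincide.

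S100A16, a widely expressed S100 protein with an atypical first calcium-binding loop, had the largest difference of the group. Its probe set had a value of 10.3 in SupB15 against 3.37 and 3.64 in SupB15-MR. SupB15-MR replicate 1 lay under the 20th percentile of all values and replicate 2 just over it, so both were close to background. The mean difference was -6.76 ± 0.19 (SD of the 2 SupB15-MR arrays), and 14 other probe sets of the array had a lower or equal one (rank 15 from the lowest). The value of SupB15-MR replicate 1 was held by 454 probe sets of that array. The difference thus gives the distance from SupB15 down to background.

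S100A6 (calcyclin), which binds the ubiquitin ligase adaptor CACYBP, had 6.85 in SupB15 against 3.80 and 3.84 in SupB15-MR. Both SupB15-MR arrays were low and differed by 0.04, and the mean difference was -3.04 ± 0.03. As both lay little above the 20th percentile of all values, this difference too is a distance down to near background. Its second probe set had 4.05 in SupB15 against 4.27 and 4.31 in SupB15-MR. This probe set was low in every array and did not follow the first.

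S100A4 (metastasin), which binds non-muscle myosin heavy chain MYH9 and promotes its disassembly, had 10.9 in SupB15 against 8.49 and 8.84 in SupB15-MR. The transcript remained well above the 20th percentile in SupB15-MR. The mean difference was -2.23 ± 0.25, a 4.70-fold lower signal, on its only probe set.

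S100A13, which takes part in the release of FGF1 and IL1A from cells without a signal peptide, was measured by a pair of probe sets that went opposite ways. The first had 10.4 in SupB15 against 7.16 and 7.62 in SupB15-MR, a mean difference of -3.01 ± 0.33. The second had 6.04 in SupB15 against 7.07 and 7.12 in SupB15-MR, a mean difference of 1.06 ± 0.04. The mean of both differences was -0.98, and no single direction can be given for the gene. After centring the arrays on their medians the second was less than 2-fold apart. The transcripts that each of them reads were not examined here.

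S100A11, the partner of ANXA1, had 6.42 in SupB15 and 5.37 in both SupB15-MR arrays. The difference of -1.05, a 2.07-fold lower signal, lay just past 2-fold. As the values of the SupB15-MR arrays are identical, it has no measured spread.

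S100A10 (p11), the partner of ANXA2, had the value 4.40 in SupB15 and in both SupB15-MR arrays. Its second probe set had 3.16 in SupB15 and 3.49 in both SupB15-MR arrays. Both probe sets were low in all 3 arrays.

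S100A8 and S100A9, the subunits of calprotectin, stayed at low values. S100A9 had 4.85 in every array. The first probe set of S100A8 had 3.05 in every array. The second had 2.63 in SupB15 against 2.999 and 2.58 in SupB15-MR, so the SupB15-MR arrays lay on either side of SupB15. Other myeloid genes varied. The neutrophil granule genes CEACAM8, LTF and CAMP had the same value in all 3 arrays, but MPO, the granule enzyme myeloperoxidase, had 6.18 in SupB15 against 8.20 and 7.30 in SupB15-MR, a difference of 1.57 that did not pass (adjusted p = 0.271 from limma). FCAR, the IgA receptor, had a difference of 1.32 (adjusted p = 0.0511 from limma) and CSF1R, the receptor of macrophage colony-stimulating factor, one of -2.29 (adjusted p = 0.0841 from limma), and neither passed. Across probe sets, the differences went down to 0.19 for MPO and to 0 for FCAR. Of 12 myeloid markers tested in limma, 1 rose and none fell, and of all genes tested 11.8% rose and 9.05% fell. The myeloid markers with a value over the 20th percentile numbered 11 of 13 in SupB15 and 12 of 13 in SupB15-MR. The median of the 13 markers was 3.99 in SupB15 against 4.37 and 4.27 in SupB15-MR. LYZ, the lysozyme gene, rose by 1.21 (adjusted p = 0.00669 from limma), from 3.07 in SupB15 to 4.29 and 4.27 in SupB15-MR. That SupB15 value lay under the 20th percentile of all values (3.47), so the rise starts from background. On the second LYZ probe set SupB15-MR and SupB15 were 0 apart. The log2 sum of these 13 markers was 8.35 in SupB15 against 9.06 and 8.59 in SupB15-MR. Such a sum is led by the highest values, and the highest in both SupB15-MR arrays was that of MPO, which did not pass. No change of the myeloid markers as a group is read from it.

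ANXA2, which with S100A10 forms a tetramer that binds plasminogen and its activator at the cell surface, was high in SupB15. Its 3 probe sets with names ending in _x_at, which may read related sequences, had values of at least 10.7 in SupB15. On the first of them the value was 10.998 in SupB15 against 9.60 and 9.24 in SupB15-MR. The mean difference of this probe set was -1.58 ± 0.25, a 2.98-fold lower signal, and those of the other two were -1.71 ± 0.25 and -1.58 ± 0.30. On all 3, SupB15-MR replicate 2 was lower than replicate 1 by 0.35 to 0.43. They read 1 gene and are not independent. The processed pseudogene ANXA2P2 is similar in sequence to ANXA2. The probe set listed for ANXA2P2 had 5.90 in SupB15 against 4.27 and 4.38 in SupB15-MR, a mean difference of -1.57. Its name also ends in _x_at, and whether it reads ANXA2 as well was not tested. The fourth probe set of ANXA2 had 2.69 in SupB15 against 4.38 and 3.14 in SupB15-MR, so the SupB15-MR arrays were 1.24 apart. A further probe set, listed for both SNU13 and ANXA2 and therefore not counted, had a difference of -0.53.

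ANXA1, an annexin that inhibits phospholipase A2 and is secreted as a ligand of formyl peptide receptors, was at background. Its first probe set had 3.36 in SupB15 against 3.29 and 2.86 in SupB15-MR, and its second 2.23 in every array. These values lie at the bottom of the scale, where a lower level could not be read.

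The probe sets can also be listed by their value in SupB15, which is a term of the difference that chose the genes, so that nothing is read from the counts. In SupB15, 10 probe sets lay above 4.66 (the 40th percentile of all values), and of these 8 were lower by 2-fold or more and 1 was higher. The tenth, of S100A9, had a difference of 0. Of the 8 at or below that level, where a 2-fold fall can hardly be measured, none was lower by as much. Among all probe sets above that level in SupB15, 20.5% were lower by 2-fold. Between the SupB15-MR arrays, the 8 lower probe sets differed by at most 0.46, and the median absolute difference over the whole array was 0.04 (0.15 where the values were not identical).

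To see how far the rest of both families went the same way, the other S100 genes and annexins were taken from the fit of limma across all probe sets, each gene read on the probe set of highest mean. A call needed an adjusted p of 0.05 or less together with a 2-fold change. Of the probe sets tested, 9.71% were called lower and 13.1% higher (22.8% in all), and of 17530 genes 9.05% were called lower and 11.8% higher (20.9% in all). SupB15 has 1 array, so the spread behind each p-value comes from the SupB15-MR arrays alone and leaves out variation between SupB15 cultures. Where both SupB15-MR values are identical the measured spread is 0, and even a small difference can then have a low adjusted p.

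Of 10 other S100 genes tested, 1 fell, none rose and 9 did not pass. S100A1, known for its role in calcium handling in muscle, fell by 1.02 from 7.38 in SupB15 to 6.36 in both SupB15-MR arrays (adjusted p = 0.000645 from limma, on identical values). S100A2, S100A3, S100A5, S100A7, S100A12, S100A14 and S100B had values below 4.8 in all arrays and differences between -0.04 and 0.30, the highest of these at S100A2. S100Z, S100G and S100P had differences of 0.70, 0.34 and 0.33, all under 2-fold, and S100A7A one of 0.05. The median difference of the 12 other S100 genes with a probe set was 0.

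Of 6 other annexins tested, 3 fell, 1 rose and 2 did not pass. ANXA4, an annexin of epithelial and secretory membranes, had 9.44 in SupB15 against 7.74 and 7.63 in SupB15-MR, and fell by 1.75 (adjusted p = 0.0276 from limma). Its second probe set had a difference of -3.03. ANXA6, the large annexin with a doubled core, had 8.92 in SupB15 against 7.11 and 7.26 in SupB15-MR, and fell by 1.73 (adjusted p = 0.0408 from limma), while its second probe set had 4.69 in every array. ANXA11, a binding partner of S100A6, had 9.74 in SupB15 and 8.05 in both SupB15-MR arrays, and fell by 1.69 (adjusted p = 0.000645 from limma, on identical values). Its other probe sets had differences of -0.64 and -2.08. ANXA7 rose by 1.29 on the probe set with the highest mean (9.47 in SupB15, 10.8 in both SupB15-MR arrays), but on the second the difference was -1.35, so no direction can be given for the gene. ANXA5, the annexin used to stain dying cells, had 7.65 in SupB15 against 8.58 and 8.76 in SupB15-MR, a difference of 1.02 that did not pass (adjusted p = 0.0772 from limma). With probe sets of identical SupB15-MR values left out, 3 of the other S100 genes and annexins were called in place of 5.

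**Figure D2:**
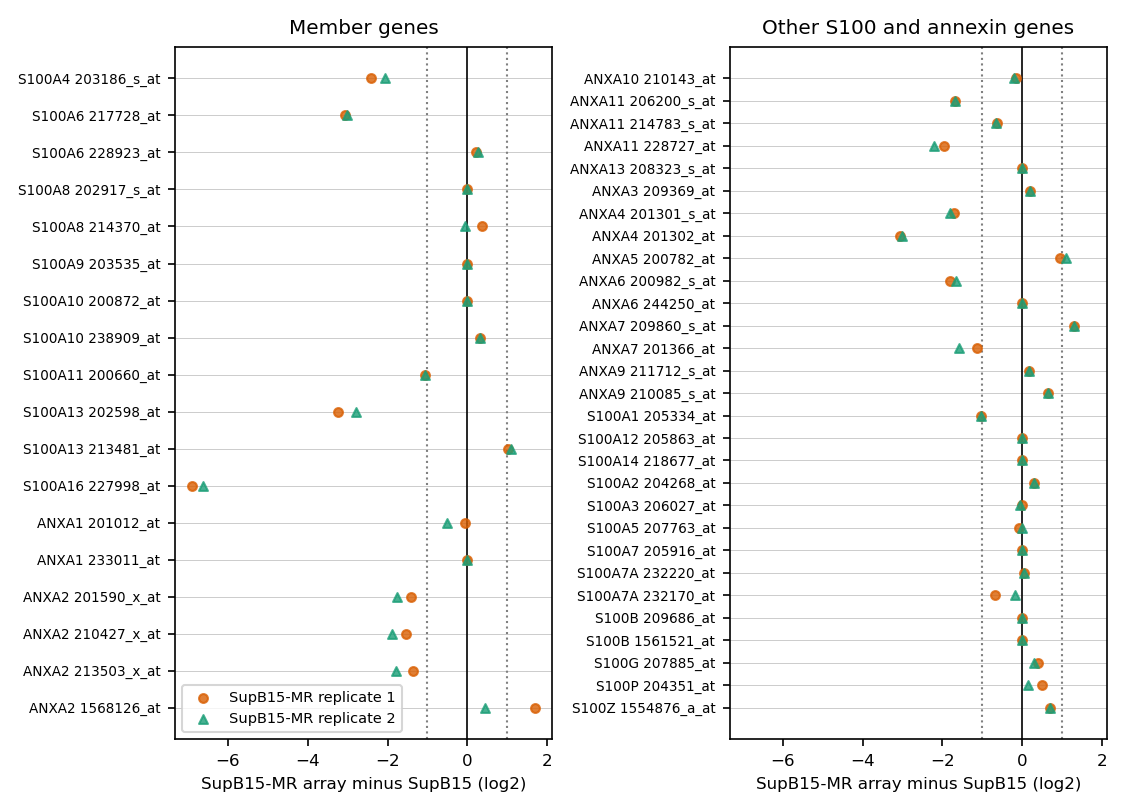
Difference of each SupB15-MR array from SupB15 on the log2 scale (horizontal axis), for each probe set of the 10 genes (left) and of the other S100 genes and annexins (right). Circles are SupB15-MR replicate 1, triangles are replicate 2, and the dotted lines mark 2-fold. Both probe sets of ANXA4 lie left of the lower line (-1.75 and -3.03), and the pairs of S100A13 and of ANXA7 lie on opposite sides of 0.

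The S100 genes stand beside each other on the chromosome, and the differences of the neighbours are given in gene order. S100A10 and S100A11 lie apart from the other S100 genes, beyond the genes of the skin barrier. The 14 S100 genes from S100A9 to S100A1 follow each other without another protein-coding gene. In this run S100A6, S100A4, S100A16, S100A13 and S100A1 were lower by 2-fold or more on the probe set of highest mean, and all of these but S100A1 are among the genes chosen for their differences, so the run is a description. Over all their probe sets S100A6 had a mean difference of -1.40 and S100A13 one of -0.98. Between them lay S100A5, S100A3, S100A2 and S100A14 at low values in all arrays. S100A5 had a difference of -0.04 and S100A14 one of 0. By the same measure 12.3% of all genes with a probe set were lower and 14.4% higher. Of the 15 genes after S100A1, 2 were lower by 2-fold or more and 2 higher. Of 24 genes with a probe set between S100A11 and S100A9, 3 were lower and none higher, and of 12 before S100A10, 2 were lower and 2 higher.

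Over all 45 neighbours tested in limma, 7 fell, 4 rose and 34 did not pass. CHTOP, a chromatin-associated RNA export factor and the first gene after S100A1, rose by 1.58, although its probe sets ranged from -1.14 to 2.83. JTB, further along, fell by 2.31, on identical SupB15-MR values. OAZ3, SNX27 and GATAD2B rose by 2.95, 2.14 and 2.12, but the lowest of their probe sets had 0, 0.07 and -1.16. The median difference of the 51 neighbours with a probe set was -0.02.

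**Figure D3:**
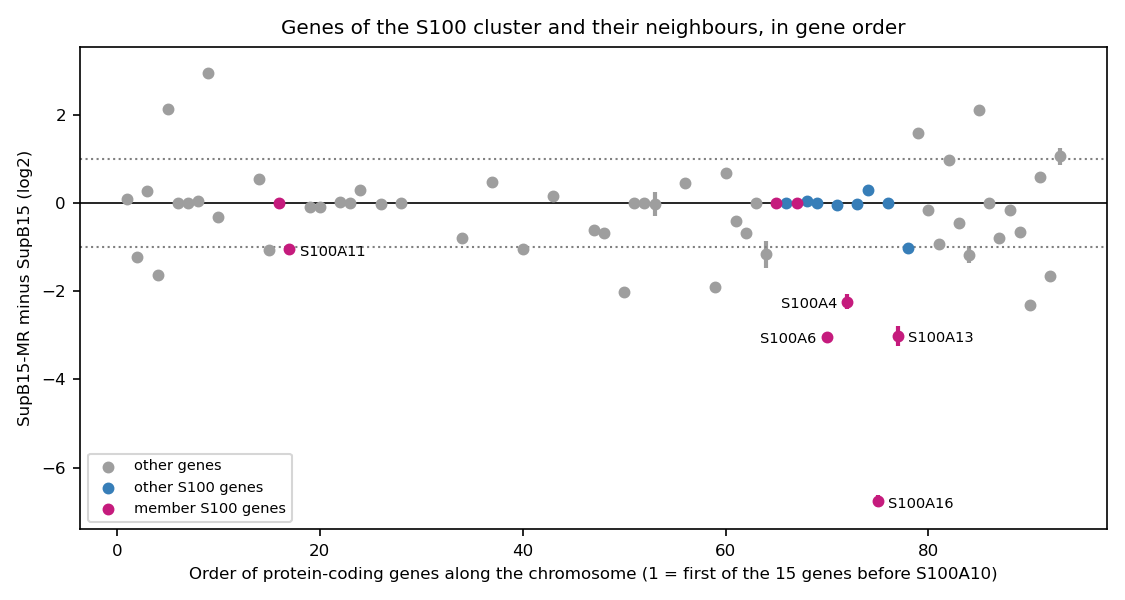
Mean difference between the SupB15-MR arrays and SupB15 on the log2 scale (vertical axis) for each protein-coding gene with a probe set of its own, in gene order along chromosome 1 (horizontal axis), from 15 genes before S100A10 to 15 after S100A1. Bars join the values of both SupB15-MR arrays, and dotted lines mark 2-fold. The run on the right holds S100A6, S100A4, S100A16 and S100A13 between -2.23 and -6.76, with S100A14 at 0 among them.

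The proteins that S100 proteins and annexins act on were then read from the same fit. Of 7 receptors tested, 1 fell and none rose. BSG (CD147), a receptor of S100A9, fell by 1.38 from 9.85 in SupB15 to 8.41 and 8.53 (adjusted p = 0.0405 from limma). AGER, the receptor RAGE that several S100 proteins bind, had 4.98 in SupB15 against 6.12 and 6.27 in SupB15-MR, a difference of 1.22 that did not pass (adjusted p = 0.0543 from limma), and the lowest of its probe sets had 0.10. TLR4, on the same list, had a difference of -0.74 on the probe set of highest mean, on identical SupB15-MR values. The lowest of its 4 probe sets had -3.19. The formyl peptide receptor genes FPR1, FPR2 and FPR3 had differences between -0.20 and 0.02.

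Of 5 genes of the plasminogen system tested, 1 fell and 4 did not pass. PLGRKT, a plasminogen receptor, fell by 1.34 from 8.05 in SupB15 to 6.68 and 6.74 (adjusted p = 0.0193 from limma). PLAUR, the urokinase receptor, had 8.05 in SupB15 against 5.50 and 5.79 in SupB15-MR. This difference of -2.40 was large but did not pass (adjusted p = 0.0558 from limma), and at least 1 of its probe sets had a difference of 0.

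Of 17 intracellular partners tested, 1 fell, 1 rose and 15 did not pass. DYSF, the membrane repair protein dysferlin that binds ANXA1 and ANXA2, fell by 3.22 from 7.52 in SupB15 to 4.30 in both SupB15-MR arrays (adjusted p = 0.000645 from limma, on identical values). HLTF, a helicase-like factor bound by the complex of ANXA2 and S100A10, rose by 1.21 to 10.6 in both (adjusted p = 0.000645 from limma, on identical values). MYH9, the target of S100A4, had 8.94 in SupB15 against 7.70 and 7.29 in SupB15-MR, a difference of -1.44 that did not pass (adjusted p = 0.133 from limma). KCNK3, a potassium channel that S100A10 helps to carry to the membrane, had a difference of -1.63 that did not pass (adjusted p = 0.101 from limma). AHNAK, the large scaffold of the ANXA2 complex, had 5.77 in SupB15 and 5.88 in both SupB15-MR arrays. CACYBP, the partner of S100A6, had a difference of -0.03, and its probe sets ranged from -0.58 to 1.26.

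In all, 29 genes of the receptors, the plasminogen system and the intracellular partners were tested, of which 3 fell and 1 rose, and 8 were called after centring the arrays on their medians.

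**Figure D4:**
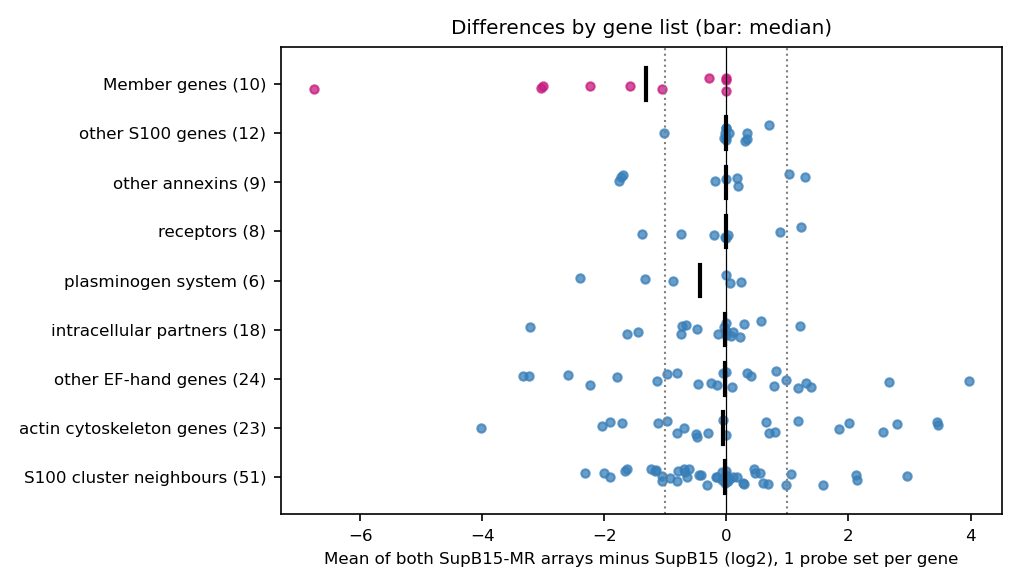
Mean difference between the SupB15-MR arrays and SupB15 on the log2 scale (horizontal axis), 1 point per gene, for the 10 genes described here and for each related list, with the number of genes in brackets, the median as a bar and 2-fold as dotted lines. The median of the 10 genes (-1.31) follows from how they were chosen, and the other medians lie between -0.44 and 0.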

How the data were processed

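Expression was measured on Affymetrix HG133plus2 arrays in SupB15 (1 array) and SupB15-MR cells (2 arrays). The authors labelled the RNA after NuGEN Ovation amplification and used RMA to normalise the arrays and summarise probes. The deposited table holds log2 values of 54675 probe sets, of which 41097 are listed with 1 gene, 1801 with several and 11777 with none. RMA shares its normalization between arrays, so values are relative to the other arrays. Precision is limited by the number of arrays. All 3 value columns were used.

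Differences were taken as each SupB15-MR array minus SupB15. A probe set was dropped when no array exceeded the 20th percentile taken over all values (8641 dropped, 46034 left), and limma 3.58.1 in R 4.3.3 was fitted across the rest with Benjamini-Hochberg adjustment, variances moderated by empirical Bayes and 1 residual degree of freedom. The fit was run on simulated data without identical SupB15-MR values, so that run says nothing on probe sets with identical values. The methods name an ANOVA, which was run as an alternative. Identical values lowered the prior SD to 0.00102. Genes outside the group were named by size, up to 4 of each list among those 2-fold apart on each SupB15-MR sample. Other genes were named for their level, for their other probe sets, as receptors or partners, or for their place beside a member. These other genes were chosen after their values were seen. The members, lists and rules were chosen with earlier results of these data known. Gene order came from the RefSeq gene table (GRCh38.p14).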

Additional observations from a re-analysis of the deposited data

How the results depend on the processing

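No paired analysis was possible because SupB15 has 1 array. The members counted as at least 2-fold lower numbered 8 of 18 with centring or quantile normalization, 8 of 14 and 8 of 10 with the filters at the 20th and 40th percentile, 6 of 10 with 1 probe set per gene, and 5 of 15 without the _x_at probe sets. Leaving out either SupB15-MR array kept this count at 8 and gave medians of -0.27 and -0.03. The median of -0.14 became -0.33 with centring, -1.31 with the filter at the 20th percentile (chosen after seeing the data) or with 1 probe set per gene by either rule, and -1.65 with the filter at the 40th. A filter keeps a probe set that exceeds the cut in any array. S100A16 and the first probe set of S100A6 exceeded the 40th percentile (4.66) only in SupB15, where they were high. Nothing is therefore read from the counts and medians under the filters. Calls across genes depended on the test. With the variance prior from differing probe sets, 16476 probe sets were called in place of 10491, and 8 partners and receptors (main value 4), 11 other EF-hand genes (7) and 16 marker genes (8). Without identical probe sets, 3 other S100 genes and annexins (5), 11 EF-hand genes and 16 marker genes were called. Centring gave 8 and quantile normalization 7 partners and receptors, and 15 and 14 marker genes. The ANOVA called 0 of 27745 probe sets, and 0 in each of the 6 gene groups (the other S100 genes and annexins, partners and receptors, cluster neighbours, EF-hand, actin and marker genes), against 6778 probe sets and 2, 2, 7, 6, 2 and 8 genes when p was 0.05 or less before adjustment with a 2-fold change. Without 1 SupB15-MR array no test is possible, and the genes at least 2-fold apart were 16459 to 16512 probe sets, 5 to 6 other S100 genes and annexins, 8 and 8 partners and receptors, 11 to 15 cluster neighbours, 11 to 12 EF-hand, 12 to 13 actin and 16 to 17 marker genes.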

Other observations

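Other calcium-binding proteins of the EF-hand type went both ways. Of 23 tested in limma, 4 rose, 3 fell and 16 did not pass, and the median difference was -0.03. Of all genes tested 11.8% rose and 9.05% fell, so nothing about the list is read from these counts. CAPNS1, the small subunit of the calpains, fell by 3.23 from 11.3 in SupB15 to 8.02 and 8.15 (adjusted p = 0.0185 from limma). SDF4, a calcium-binding protein of the Golgi lumen, fell by 3.33 (adjusted p = 0.031 from limma). PPP3R1, the regulatory subunit of calcineurin, rose by 3.98 from 5.78 to 9.84 and 9.67 (adjusted p = 0.0204 from limma), and its other probe set was higher too. VSNL1, a neuronal calcium sensor, had a difference of 2.67 that did not pass (adjusted p = 0.0575 from limma), and its other probe set had -0.60.

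Of 22 actin cytoskeleton genes tested, 5 rose, 3 fell and 14 did not pass, beside 11.8% and 9.05% of all genes that rose and fell. The tropomyosins TPM1 and TPM4 rose by 3.46 and 3.44, although at least 1 probe set of each was lower than in SupB15 (-1.30 and -0.40), and TPM2 had a difference of 2.79 that did not pass (adjusted p = 0.0803 from limma). TAGLN2, which encodes transgelin-2, had 8.71 in SupB15, and 4.38 and 5.01 in SupB15-MR, and did not pass (-4.02, adjusted p = 0.0722 from limma).

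Among the marker lists, VPREB1, CD34 and IGLL1 of the B-precursor list fell (differences of -6.41, -6.38 and -2.31), and RAG2 rose by 3.32. Of 12 B-precursor markers tested, 2 rose and 3 fell. The shares of all genes, to be read beside each list here, were 11.8% and 9.05%. Of 9 marrow stromal markers tested, 1 fell (SPARC, by 3.27) and none rose. THY1 and DCN had differences of -3.22 and -1.10 that did not pass, and the highest of the probe sets of DCN had 0.12. Of 7 T and NK cell markers 1 fell (CD3E, by 2.28), and NKG7 had a difference of -1.49 that did not pass. None of 4 erythroid markers was called, and 0 were 2-fold apart in both SupB15-MR arrays.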
